A study of Mus musculus with 43 samples.

Results

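GABAergic interneurons, the inhibitory neurons of the cortex, were followed here through 31 marker genes in sorted neuronal nuclei of mice kept in environmental enrichment or standard housing. The genes were chosen by symbol as known interneuron markers, with no threshold on a measured value but with earlier results of these data known. The set covers the general GABAergic programme (Gad1, Gad2, Slc32a1, Dlx1, Dlx2, Dlx5, Dlx6, Erbb4) and the subclasses that carry its best-known peptides and surface proteins. These genes are 31 of the 53379 gene IDs in the RNA tables. Of them, 26 reached 0.5 counts per M counts of the library (CPM) in at least 6 libraries in the female RNA table, and 26 did so in the male RNA table. The 5 markers under that level in both tables were Dlx2, Chodl, Chrna2, Sncg and Sp8, and their RNA was not tested within either table. Open-chromatin regions were assigned to a marker when no other protein-coding gene had a closer start and that start lay at most 100 kb away, which gave 264 of 165184 female regions and 303 of 192919 male regions.

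The libraries came from frontal cortex of Swiss Webster mice that were weaned at postnatal day 25 and sampled at 2 months of age. Mice lived either in enriched cages (EE), with more floor space, a wheel for running, a tube, additional nesting material and a changing set of toys, or under standard conditions (SH). Nuclei were fixed with paraformaldehyde and sorted for NeuN, a protein of neuronal nuclei, so every group was sorted and fixed alike. Nuclear RNA was sequenced in 6 EE and 6 SH libraries from females and in 6 EE and 6 SH libraries from males, and open chromatin was measured by ATAC-seq in 3 EE and 3 SH female libraries and in 6 EE and 7 SH male libraries. The labels do not say that replicates were separate animals, so p-values measure the spread between these libraries, which may be technical. The female and male libraries carry different library prefixes in the labels, so sex and whatever those prefixes stand for cannot be told apart.

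Cortical interneurons use the transmitter GABA, which is made by the glutamate decarboxylases Gad1 and Gad2 and loaded into vesicles by the transporter Slc32a1. Cells that arise in the medial ganglionic eminence depend on the transcription factor Lhx6 and become mainly parvalbumin (Pvalb) or somatostatin (Sst) cells. Cells that arise in the caudal ganglionic eminence express Adarb2 and Prox1 and become mainly Vip, Lamp5 or cholecystokinin (Sncg) cells. Several of these genes are not exclusive to interneurons: Cck, Cnr1, Lamp5, Reln and Nos1 are also found in other cortical cells. In bulk nuclei, fewer cells of a type and less RNA per cell cannot be told apart.

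Totals ran from 10.6 to 15.4 M counts per female RNA library and from 10.4 to 14.6 M counts per male RNA library. For ATAC they ran from 19.1 to 26.3 M counts in females and from 27.7 to 73.8 M counts in males. Rbfox3, the gene of NeuN, lay between 1903 and 2265 CPM in female libraries and between 1563 and 1832 CPM in male ones. Cldn5, a defining endothelial gene, did not exceed 2.01 CPM in any female library or 0.204 CPM in any male one. Other non-neuronal genes were present. Mbp, an oligodendrocyte gene, ran from 82.2 to 206 CPM in female libraries and from 74.5 to 160 CPM in male ones. Gfap, an astrocyte gene, reached 7.57 CPM in females and 2.28 CPM in males, and microglial Cx3cr1 7.11 and 5.37 CPM. Female SH library 2 stood apart in the non-neuronal marker lists (astrocytes, oligodendrocytes and their precursors, microglia and vascular cells), with a summed level of 2576 CPM, while the other female libraries lay between 1484 and 2030 CPM. Female SH 2 also had the highest value of its group for 17 of the 26 tested markers, and male EE library 1 had the lowest of its group for 16 of 26.

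Levels per gene length differed widely between the markers. On the scale of CPM per kb of gene span, Sst was the highest marker in both tables, at 6.08 in the female and 9.79 in the male table (means over 12 libraries). Cck, the cholecystokinin precursor, was next at 4.74 and 8.43 CPM per kb, and Cnr1, the cannabinoid receptor of cholecystokinin basket cells, followed at 2.80 and 3.06. Adarb2, an RNA-editing enzyme homologue, was at 1.40 and 0.951 CPM per kb, and Lamp5, a lysosome-associated membrane protein, at 1.27 and 2.48. The vesicular transporter Slc32a1 was at 0.933 and 0.876, Gad1 at 0.833 and 0.510, and Gad2 at 0.617 and 0.361. Vip stood at 0.501 and 0.533 CPM per kb, Lhx6 at 0.210 and 0.122, and Pvalb at 0.172 and 0.159. Chodl, a marker of long-range projecting somatostatin cells, and Sncg, gamma-synuclein, were at the bottom of the female order with 0.00733 and 0.0105 CPM per kb.

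**Figure D1:**
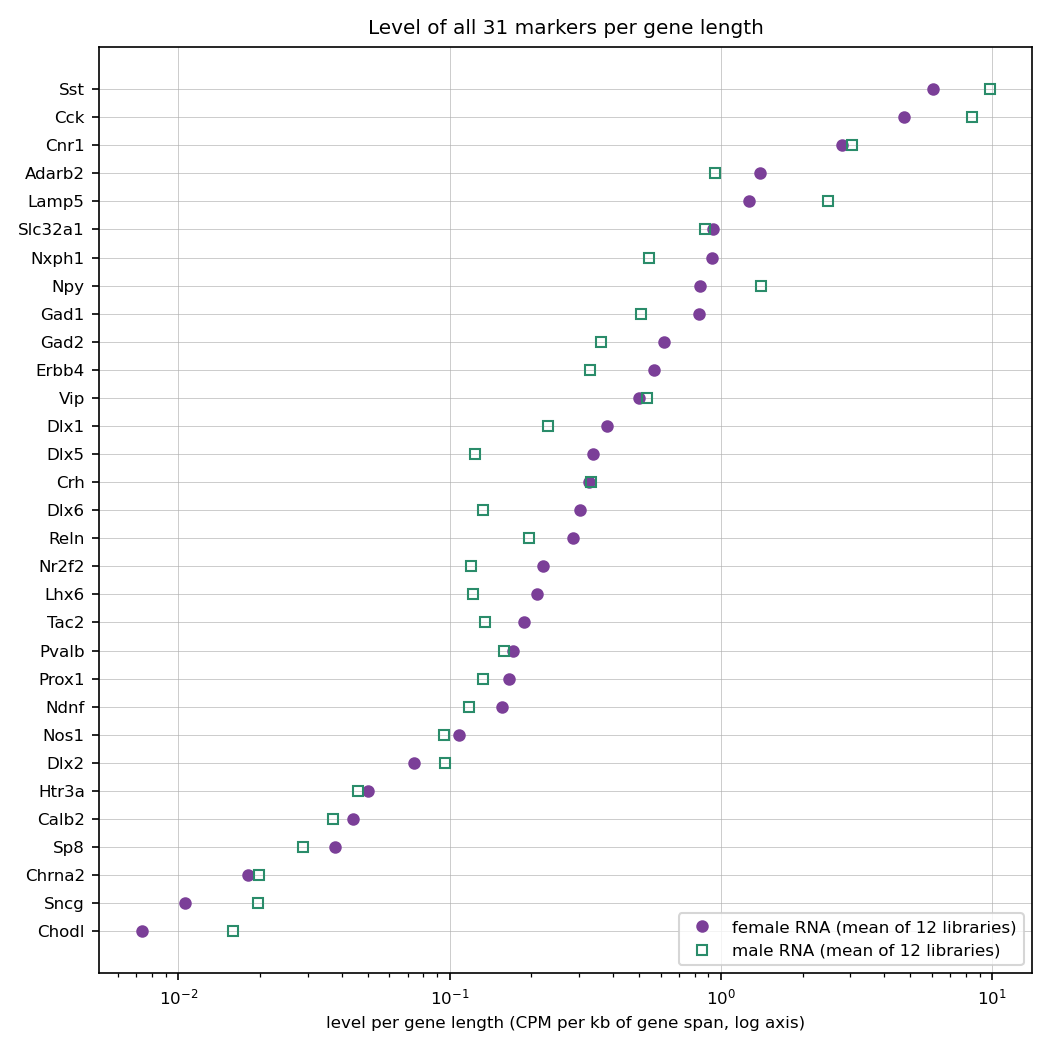
Level of all 31 markers in CPM per kb of gene span (log axis), ordered by the female RNA table; filled circles are means over 12 female libraries and open squares means over 12 male libraries. Sst is highest in both tables, at 6.08 and 9.79, and Sp8, Chrna2, Sncg and Chodl, which were not tested within either table, are the lowest in both.

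Without length correction, the order was set by the long genes. Adarb2 spans 565.882 kb and had 790 CPM in the female table and 538 CPM in the male table. Erbb4, the neuregulin receptor of interneurons, spans 1075.87 kb and had 610 CPM in the female table. The female and male libraries are in separate tables, so levels set across them carry any difference in how the tables were made. In SH libraries the log2 ratio of the female to the male level was 0.80 for Erbb4, 0.79 for Nxph1 and 0.63 for Adarb2, and it was -0.85 for the short gene Sst, -0.82 for Lamp5 and -0.76 for Cck. The 3 highest ratios were nevertheless those of shorter genes, with 1.06 for Dlx5, 1.03 for Nr2f2 and 0.95 for Dlx6. Across the 26 tested markers this ratio had a Spearman rho of 0.33 with gene span, and a rho of 0.27 across the 15446 genes found in both tables, where the points share libraries, depth and counting.

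Promoter sequence is shown for 3 markers, Sst, whose promoter holds a well-known cyclic AMP response element, and Lhx6, both of the medial eminence, and Adarb2 of the caudal eminence. The runs are the 250 bases before a RefSeq start, 5′ to 3′ on the gene's strand, in build GRCm38.p6. Capitals mark the motif found: the cyclic AMP response element TGACGTCA in Sst (chr16:23890845-23891094, minus strand), the AP-1 motif TGANTCA in Lhx6 (chr2:36105409-36105658, minus strand) and the homeodomain core TAATTA in Adarb2 (chr13:8202616-8202865, plus strand).
Sst: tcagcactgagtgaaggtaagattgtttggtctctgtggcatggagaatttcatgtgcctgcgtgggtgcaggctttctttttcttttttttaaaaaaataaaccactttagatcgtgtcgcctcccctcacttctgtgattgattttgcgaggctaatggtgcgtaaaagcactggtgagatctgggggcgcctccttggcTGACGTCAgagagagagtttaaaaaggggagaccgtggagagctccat
Lhx6: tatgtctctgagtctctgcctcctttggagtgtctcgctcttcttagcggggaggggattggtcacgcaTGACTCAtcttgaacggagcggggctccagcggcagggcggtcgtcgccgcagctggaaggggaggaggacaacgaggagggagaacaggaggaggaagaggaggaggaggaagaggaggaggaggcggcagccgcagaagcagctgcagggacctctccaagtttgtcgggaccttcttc
Adarb2: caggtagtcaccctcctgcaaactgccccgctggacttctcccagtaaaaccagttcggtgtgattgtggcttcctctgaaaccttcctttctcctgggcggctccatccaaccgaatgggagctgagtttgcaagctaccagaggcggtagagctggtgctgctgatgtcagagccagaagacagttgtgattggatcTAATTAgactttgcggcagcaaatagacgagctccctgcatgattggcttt
The 3 motifs were searched on both strands, and none of them overlaps another in these runs. The response element was found in 1.55% of 32851 RefSeq promoters, the AP-1 motif in 6.75% and the homeodomain core in 4.84%. RefSeq promoters were matched for 24 of the 31 markers, with several starts for some. Sst was the 1 marker with the response element, Lhx6 the 1 with the AP-1 motif, and Adarb2 and Sp8 the 2 with the homeodomain core. A match is a description of the letters in this window.

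In females, the general GABAergic genes that could be tested had positive fold changes of EE against SH, but no marker passed the test. The untested Dlx2 was at 0.224 CPM in EE and 0.273 CPM in SH. Each of the 7 tested pan-GABAergic genes had a positive log2 fold change of EE against SH, with a median of 0.28, while the median over all 15967 genes tested was near 0. Over the 26 tested markers, 18 were higher and 8 lower in EE, with a median of 0.09, and 50% of all genes were higher. By edgeR's quasi-likelihood test with Benjamini-Hochberg adjustment over all genes, 0 of 26 markers were called at an adjusted p under 0.05, as were 0% of all genes. At an unadjusted p under 0.05, 4 of 26 markers (15.4%) were past the threshold, against 8.24% of all genes. These were 3 higher in EE, against 4.27% of all genes, and 1 lower, against 3.97%. The EE and SH libraries overlapped for all 26 markers, and did not for 0.507% of all genes. DESeq2 and limma also called 0 markers. Among the lead markers and those with an unadjusted p under 0.05, DESeq2 gave no adjusted p for Tac2, Dlx1, Vip and Pvalb. Which of the other markers it gave one for was not recorded, so its count of 0 covers fewer than the 26 markers.

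Gad1 ran from 33.9 to 52.0 CPM in the female EE libraries (median 43.0) and from 29.4 to 52.9 CPM in SH (median 35.6). The highest SH value, 52.9 CPM, was library SH 2, and the other 5 SH libraries did not exceed 37.9. The log2 fold change of Gad1 was 0.23 ± 0.14 (SE), with an adjusted p of 0.717 by edgeR, and 0.35 without SH 2. Gad2, the isoform tied to synaptic GABA, ran from 38.9 to 60.0 CPM in EE (median 47.0) and from 27.4 to 56.8 in SH (median 37.7). All 6 EE libraries lay above the SH median for Gad2, and its log2 fold change was 0.29 ± 0.17. Slc32a1 ran from 4.00 to 6.37 CPM in EE (median 5.15) and from 3.00 to 8.03 in SH (median 3.53), again with SH 2 far above the other SH libraries, which ended at 3.65. Its log2 fold change was 0.28 ± 0.22, and 0.57 without SH 2, where its adjusted p by edgeR was 0.115, the lowest over all alternatives run, which reached 0.993.

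Dlx1, a homeobox factor of the interneuron lineage, ran from 1.93 to 3.49 CPM in EE (median 2.39) and from 1.35 to 2.43 in SH (median 1.85). All 6 EE libraries were above the SH median, the groups overlapped, and the log2 fold change was 0.45 ± 0.21 with an unadjusted p of 0.0466 and an adjusted p of 0.595 by edgeR. Its relatives Dlx5 and Dlx6 had log2 fold changes of 0.55 ± 0.30 and 0.22 ± 0.29, at low levels of 1.44 and 1.59 CPM. Erbb4, the highest of the group in CPM without length correction, had 0.08 ± 0.19. Dlx1 and Dlx6 overlap antisense genes, as Gad1 and Slc32a1 do, and since the sources do not state that counting used the strand, reads from such pairs cannot be told apart.

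**Figure D2:**
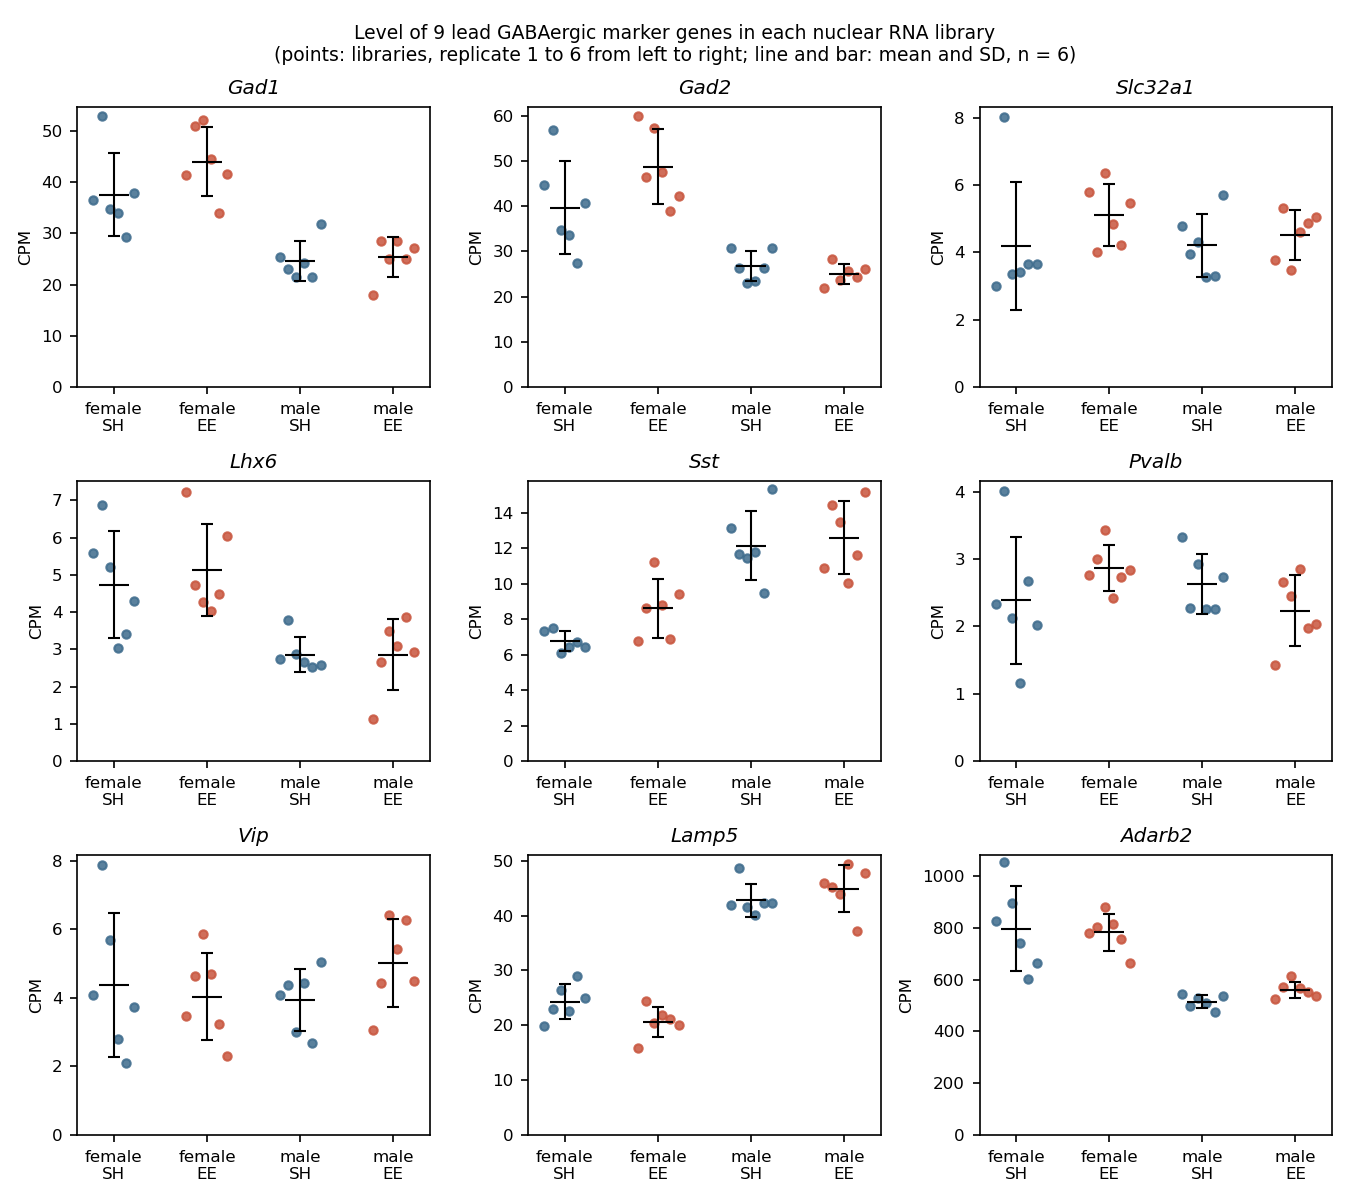
Level in CPM of 9 lead markers in each nuclear RNA library, with 6 SH and 6 EE libraries per sex; points are libraries and lines with bars are means and SD. Female SH 2 is the top SH point for Gad1 (52.9), Slc32a1 (8.03) and Vip (7.88), and male EE 1 is the lowest EE point for Gad1 (17.9) and Lhx6 (1.12).

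The markers of the medial eminence and its Sst cells differed among themselves in females. Sst, the inhibitory peptide of Martinotti cells, ran from 6.77 to 11.2 CPM in EE (median 8.71) and from 6.07 to 7.49 in SH (median 6.59). All 6 EE libraries were above the SH median, and 4 of them, at 8.64 or more, were above every SH library. The log2 fold change of Sst was 0.35 ± 0.13, with an unadjusted p of 0.0126 and an adjusted p of 0.423 by edgeR. Lhx6 ran from 4.03 to 7.21 CPM in EE and from 3.03 to 6.87 in SH, with medians of 4.60 and 4.75 and a log2 fold change of 0.11 ± 0.20, which was 0.25 without SH 2 and -0.00186 without EE 1. Nxph1, a neurexin ligand, had 0.12 ± 0.15, Nos1, the neuronal nitric oxide synthase, 0.04 ± 0.14, and Npy, neuropeptide Y, -0.14 ± 0.23. Pvalb, the calcium buffer of fast-spiking basket cells, ran from 2.42 to 3.43 CPM in EE (median 2.80) and from 1.17 to 4.02 in SH (median 2.23). All 6 EE libraries were above the SH median for Pvalb, inside the wider SH range, and its log2 fold change was 0.25 ± 0.23. It was 0.47 without SH 2, the highest SH library, and 0.11 without SH 4, the lowest.

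Among the Vip-subclass markers, Tac2, the neurokinin B precursor, had the smallest unadjusted p of all 26 markers in females. Tac2 ran from 1.32 to 2.79 CPM in EE (median 1.49) and from 0.578 to 1.55 in SH (median 0.907). SH 4, at 1.55 CPM, was the 1 SH library inside the EE range. The log2 fold change was 0.92 ± 0.29, with an unadjusted p of 0.00494 and an adjusted p of 0.291 by edgeR, from 6 to 39 counts per library. Crh, corticotropin-releasing hormone, had 0.90 ± 0.43, from 2 to 16 counts per library. Vip itself ran from 2.30 to 5.86 CPM in EE (median 4.06) and from 2.11 to 7.88 in SH (median 3.91), with a log2 fold change of -0.12 ± 0.29. Without SH 2, its highest library, the value for Vip was 0.14, so no direction is given for it. Calb2, calretinin, had 0.10 ± 0.35.

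Lamp5 was the 1 marker with an unadjusted p under 0.05 and a lower level in female EE. It ran from 15.9 to 24.4 CPM in EE (median 20.8) and from 19.8 to 28.9 in SH (median 23.9), and 5 of 6 EE libraries lay below the SH median. The log2 fold change was -0.23 ± 0.10, with an unadjusted p of 0.0283 and an adjusted p of 0.529 by edgeR. The other Lamp5-subclass markers were Ndnf, a secreted factor of neurogliaform cells, at 0.09 ± 0.17, and Reln, the glycoprotein reelin, at -0.05 ± 0.12. Cck and Cnr1 had -0.03 ± 0.08 and 0.07 ± 0.07, with the smallest SE of the female markers. Adarb2 ran from 663 to 879 CPM in EE (median 793) and from 602 to 1053 in SH (median 785), with -0.03 ± 0.13. The value was 0.07 without SH 2, which held the maximum. Prox1, a homeobox factor of caudal-eminence cells, had -0.25 ± 0.20, Nr2f2 0.05 ± 0.34, and Htr3a, the ionotropic serotonin receptor, -0.16 ± 0.40.

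**Figure D3:**
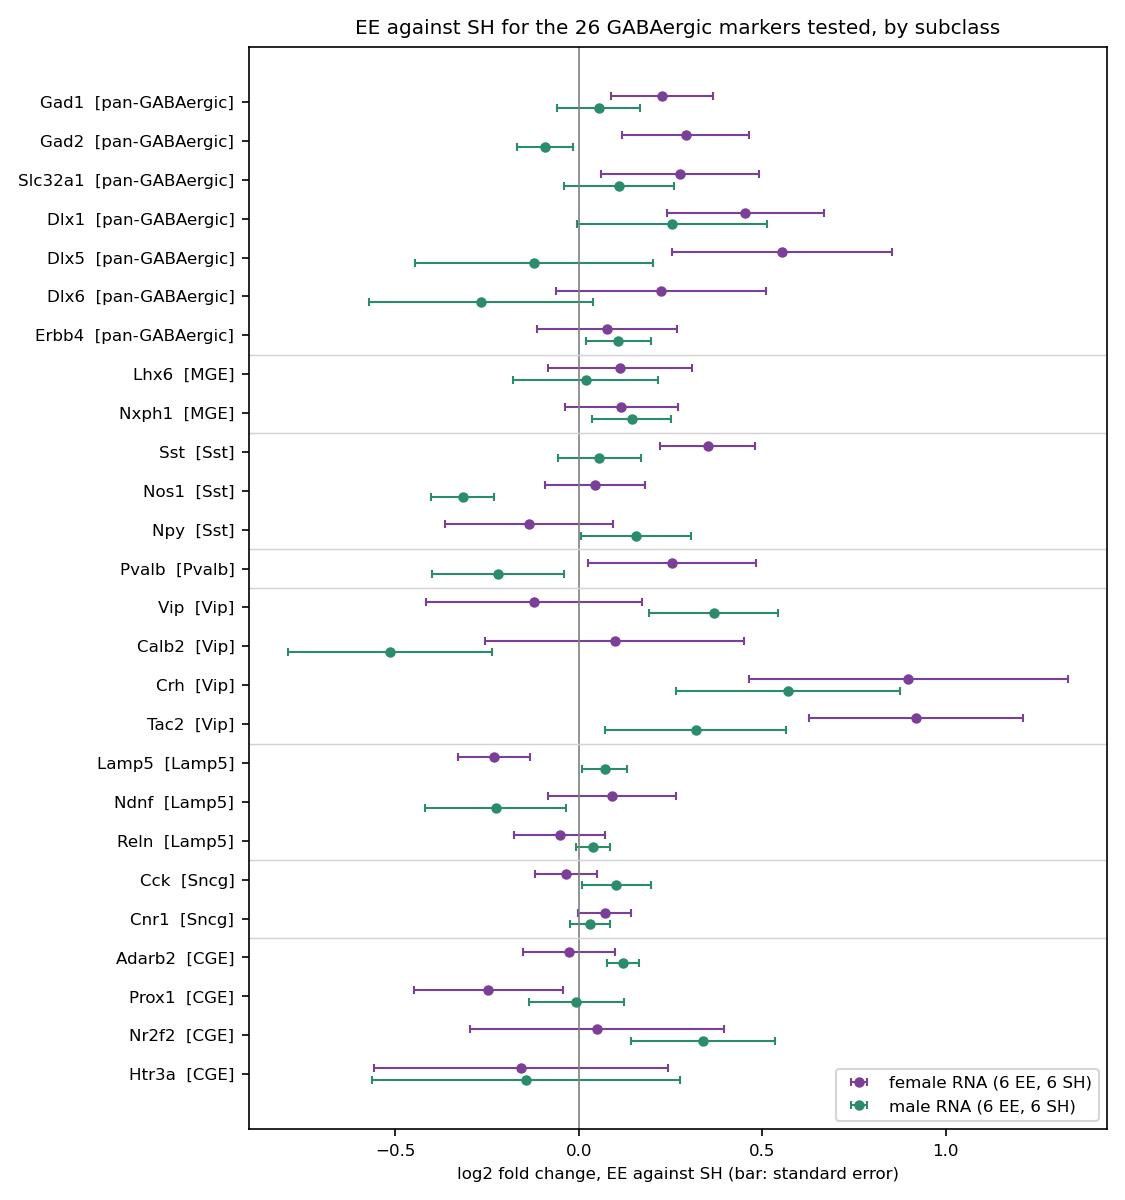
Log2 fold change of EE against SH with its standard error for the 26 tested markers, grouped by subclass, in the female (purple) and male (green) RNA tables. All 7 pan-GABAergic genes lie right of 0 in females, and 4 of the 7 do in males.

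Other cell-type lists moved with the female markers. Of 14 excitatory-neuron genes, 10 were lower in EE, with a median of -0.14, and 6 had an unadjusted p under 0.05. Among these were Cux2 at -0.19 ± 0.05, a factor of upper-layer neurons, and Camk2a at -0.15 ± 0.05, a kinase of excitatory synapses. Their summed level ran from 2698 to 2937 CPM in EE and from 2987 to 3245 CPM in SH, and the groups did not overlap. Abundant genes weigh most in this sum, with means of 884 CPM in EE and 978 CPM in SH for Camk2a. The groups overlapped for Slc17a7, the vesicular glutamate transporter, at 98.2 to 110 CPM in EE and 97.5 to 115 CPM in SH. Of 15 tested genes of striatal projection neurons, which are GABAergic cells of the neighbouring striatum, 13 were higher in EE, with a median of 0.51, while the most abundant of those measured, Pde10a, a phosphodiesterase, was at -0.23 ± 0.11. Their summed level ran from 1925 to 3064 CPM in EE and from 1969 to 2988 in SH. With the level of the striatal list per library as a covariate, 12 of 26 markers were higher in EE and their median was -0.02, and with the excitatory level as a covariate 12 of 26 were higher, with a median of -0.02. The covariate was the mean log2 level over the genes of the list, while the lack of overlap between EE and SH was seen in the summed level. The excitatory fit may therefore not separate that level from housing. Striatal projection neurons are GABAergic as well, so the striatal fit may also take out marker signal. With the striatal level as a covariate, Gad1 had 0.08, Sst 0.28 and Tac2 0.98. Without SH 2, 21 of 26 markers were higher, with a median of 0.24, and without SH 2 and with the striatal covariate 16 of 26 were, with a median of 0.09. Without SH 5, the library lowest of its group for 13 of 26 markers, 15 of 26 were higher, with a median of 0.04, and no marker was called in any of these fits. In female EE, 9 of 10 oligodendrocyte genes (median -0.09), 7 of 10 astrocyte genes (median -0.17) and 4 of 4 microglial genes (median -0.26) were lower. Of 5 genes of oligodendrocyte precursors, 3 were higher, with a median of 0.12, and 0 genes of these lists were called. Of the astrocyte genes, 4 had an unadjusted p under 0.05, of which 2 were higher and 2 lower. The smallest p was that of Bmpr1b, which was higher, at 0.53 ± 0.10 with an adjusted p of 0.0908 by edgeR. With the level of the non-neuronal lists as a covariate, the median of the 26 markers was 0.10. The part of the other cell types in the female values beyond these fits was not tested.

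Gad2 was compared with other markers between libraries of the same housing, and among the GABAergic markers Gad1 alone passed the adjusted threshold. After the mean of each housing group was taken off, log2 CPM of Gad2 had a Pearson r of 0.80 and a Spearman rho of 0.77 with Gad1 over 12 female libraries (permutation p 0.00491 and 0.00797, adjusted over 20 relations 0.0245 and 0.0398). Its r was 0.867 when the 2 libraries farthest from the median Gad2, SH 5 and EE 1, were left out. Gad2 against Slc17a7, the vesicular glutamate transporter of excitatory neurons, had r = -0.976 and rho = -0.972 in females (permutation p 2.0e-05 and 1.0e-05, the latter the smallest the permutations can give, adjusted 4.0e-04 and 2.0e-04). That r was -0.963 without the same 2 libraries and -0.794 with scaling by total count alone. Gad2 against Ppp1r1b, a phosphatase regulator abundant in striatal projection neurons, had r = 0.833 and rho = 0.881 (permutation p 0.00135 and 5.4e-04, adjusted 0.0135 and 0.0054), with r = 0.765 without those libraries. Gad2 had r = 0.722 with Vip, 0.714 with Adarb2, 0.661 with Slc32a1 and 0.656 with Lhx6, with adjusted permutation p of 0.0626, 0.072, 0.0941 and 0.0934. It had r = 0.478 with Pvalb, 0.303 with Sst and -0.600 with Lamp5, with adjusted permutation p of 0.275, 0.347 and 0.0941. In the male libraries, Gad2 and Gad1 had r = 0.755 and rho = 0.790 (permutation p 0.00336 and 0.00205, adjusted 0.0224 and 0.0137, r = 0.716 without SH 1 and SH 6), while Gad2 and Slc17a7 had r = 0.340 (adjusted permutation p 0.325). The other male relations of Gad2 to markers ran from r = 0.172 with Lamp5 to 0.742 with Slc32a1, and none passed the adjusted threshold. The difference between the tables in these relations was not tested.

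**Figure D4:**
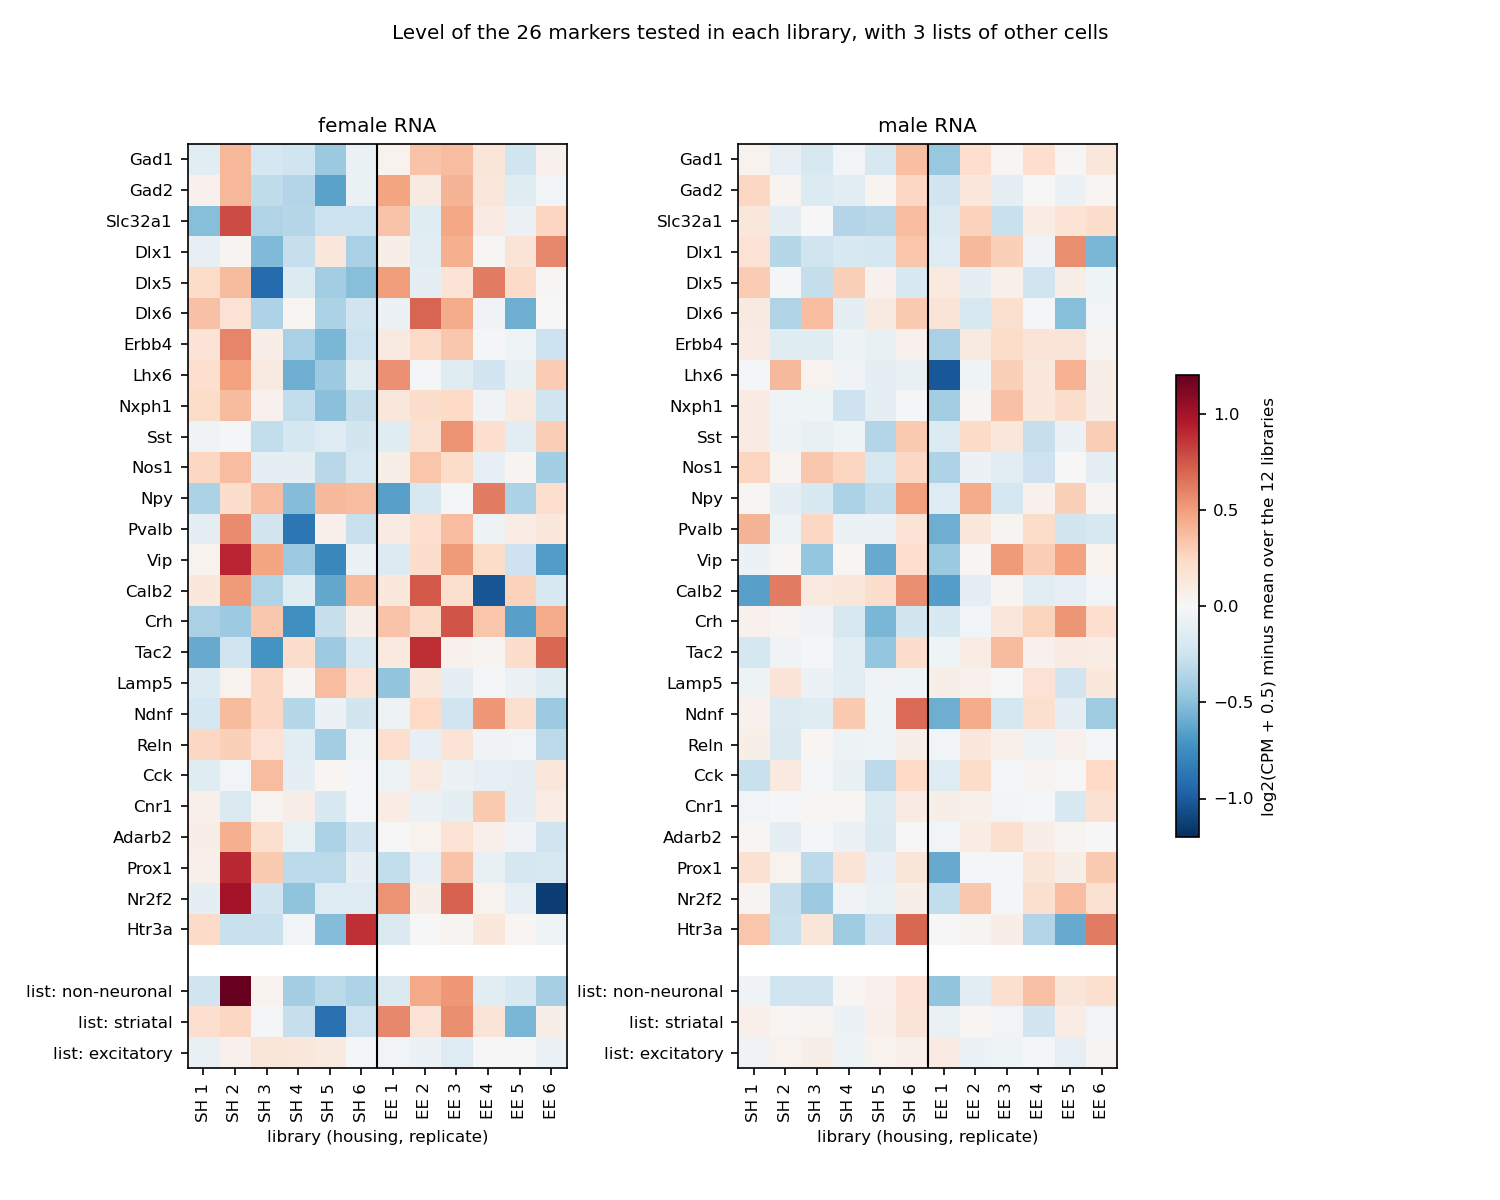
Level of the 26 tested markers in each RNA library as log2(CPM + 0.5) minus the mean over the 12 libraries of the table, with the mean level of 3 lists of other cells below. The female column SH 2 is red for most markers and the highest column of the non-neuronal list, and the male column EE 1 is blue for most markers.

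In males, 17 of 26 markers were higher and 9 lower in EE, with a median log2 fold change of 0.06, beside 48.7% higher among all genes. By edgeR 0 of 26 were called, against 0.0368% of all 16286 genes tested, and 3 of 26 (11.5%) had an unadjusted p under 0.05, against 7.85% of all genes. These were 2 higher, against 4.27%, and 1 lower, against 3.58%. The groups overlapped for all 26 markers, and did not for 0.577% of all genes. Limma called 0 markers as well, and so did DESeq2, which among the lead markers gave an adjusted p for Lamp5 and Adarb2 alone. Pan-GABAergic genes were split, with 4 of 7 higher and a median of 0.05. Over left-out libraries the median ran from 0.02 without SH 5 to 0.13 without SH 6, and from 14 to 18 markers were higher. Without EE 1, 18 of 26 were higher, with a median of 0.11, and 0 were called.

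Nos1 had the smallest unadjusted p among the male markers. It ran from 12.8 to 16.8 CPM in EE (median 15.5) and from 14.6 to 21.1 in SH (median 20.0). All 6 EE libraries lay below the SH median, and the groups overlapped through SH 5 at 14.6 CPM. The log2 fold change was -0.32 ± 0.09, with an unadjusted p of 0.00126 and an adjusted p of 0.267 by edgeR. When genes were not filtered on low counts, the adjusted p of Nos1 by edgeR was 0.0284, so its call depends on that filter, and over the other alternatives and left-out libraries it ran from 0.0723 to 0.592. DESeq2 gave it no adjusted p. In females Nos1 had 0.04 ± 0.14, and the test of the difference between the sexes gave 0.35 ± 0.17 with an unadjusted p of 0.0480 and an adjusted p of 0.562 by edgeR.

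Adarb2 had narrow ranges in males, from 525.5 to 613 CPM in EE (median 559) and from 476 to 546 in SH (median 519). All 6 EE libraries were above the SH median, and the log2 fold change was 0.12 ± 0.04, with an unadjusted p of 0.0101 and an adjusted p of 0.420 by edgeR. Vip ran from 3.06 to 6.41 CPM in EE (median 4.95) and from 2.67 to 5.06 in SH (median 4.23). For Vip 5 of 6 EE libraries were above the SH median, and its log2 fold change was 0.37 ± 0.17, with an unadjusted p of 0.0475 and an adjusted p of 0.625 by edgeR. With the non-neuronal level as a covariate Vip had 0.25, and with the excitatory level 0.23. In males 10 of 10 oligodendrocyte genes were higher in EE (median 0.34) and 9 of 10 astrocyte genes (median 0.23), with 0 called, and their part in the male values beyond these covariate fits was not tested.

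The lead markers that remain had small male differences. Gad1 ran from 17.9 to 28.5 CPM in EE (median 26.1) and from 21.5 to 31.8 in SH (median 23.6), and Gad2 from 21.9 to 28.2 in EE (median 25.0) and from 23.0 to 30.7 in SH (median 26.4). Their log2 fold changes were 0.05 ± 0.11 and -0.09 ± 0.08, opposite in sign. Slc32a1 ran from 3.49 to 5.30 CPM in EE and from 3.25 to 5.70 in SH, with 0.11 ± 0.15. Lhx6 had 1.12 CPM in EE 1 and 2.65 to 3.88 in the other 5 EE libraries, against 2.53 to 3.78 in SH. Its log2 fold change was 0.02 ± 0.20, 0.17 without EE 1, and -0.01 with scaling by total count alone, so no direction is given for it. Sst ran from 10.0 to 15.1 CPM in EE and from 9.49 to 15.3 in SH, with 0.06 ± 0.11. Pvalb ran from 1.43 to 2.86 CPM in EE and from 2.25 to 3.33 in SH, with -0.22 ± 0.18, and -0.13 without EE 1. Lamp5 ran from 37.2 to 49.4 CPM in EE and from 40.1 to 48.7 in SH, with 0.07 ± 0.06.

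The male values of the peptide markers Tac2 and Crh were 0.32 ± 0.25 and 0.57 ± 0.31, and that of Calb2 was -0.51 ± 0.28. For Tac2 all 6 EE libraries and for Crh 5 of 6 lay above the SH median, while for Calb2 all 6 EE libraries lay below it. Npy had 0.16 ± 0.15, Ndnf -0.23 ± 0.19 and Nr2f2 0.34 ± 0.20. Of the 26 markers, 11 were higher in both sexes, 2 were lower in both, and 13 had opposite signs, with a Spearman rho of 0.08 between the 2 sets of fold changes across genes, which are not independent replicates. In the test of a sex by housing interaction, 0 of 27 markers tested were called by edgeR, against 0.0230% of 17421 genes, and 2 (7.41%) had an unadjusted p under 0.05, against 8.79%. These were Nos1 and Lamp5, whose female minus male difference was -0.31 ± 0.12 (unadjusted p 0.0145, adjusted p 0.404 by edgeR).

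A wider list of 42 other interneuron genes gave a like picture. In females 34 were tested, 23 were higher in EE, the median was 0.06, and 0 were called. Those with the smallest p were Gpr83, a neuropeptide receptor, at 0.47 ± 0.13, and Tac1, the substance P precursor, at 1.24 ± 0.36, both higher in EE, followed by Hpse, the heparanase, at 1.03 ± 0.37 and Zeb2, a zinc-finger factor of migrating interneurons, at -0.13 ± 0.05. Tac1 is also abundant in striatal projection neurons. In males 36 were tested, 22 were higher, the median was 0.04, and 0 were called. Kcnc2, a potassium channel of fast-spiking cells, had the smallest p at 0.22 ± 0.05, at 322 ± 22.7 CPM with enrichment against 277 ± 12.1 CPM without it (SD, n = 6) and an adjusted p of 0.0871 by edgeR. Gpr83 was at 0.24 ± 0.10 in males as well, Nr2f1 at -0.22 ± 0.07 and Vipr2, a receptor for Vip, at -1.09 ± 0.41.

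Open chromatin at the markers was compared in the same way. Of the 264 female regions, 129 (against 48.3% of all regions) were higher and 135 lower in EE, with a median log2 fold change of -0.0048, and 0 were called by edgeR, against 0.0473% of 164926 regions. At an unadjusted p under 0.05 there were 25 marker regions (9.47%), against 8.01% of all regions. Of these 8 were higher, against 4.53% of all, and 17 lower, against 3.48%. The EE and SH libraries did not overlap in 37 marker regions, against 12.8% of all regions. Of the 303 male regions, 162 (against 49.7% of all) were higher and 141 lower, with a median of 0.02, and 0 were called, against 0% of 192834 regions. There 17 (5.61%) had an unadjusted p under 0.05, against 4.53% of all. Of these 10 were higher, against 2.61%, and 7 lower, against 1.92%. The groups did not overlap in 1 region (0.330%), against 0.123%. DESeq2 and limma called 0 marker regions, in females and in males. The tables list different regions, and 238 of the 264 female regions (90.2%) and 179 of the 303 male regions (59.1%) overlapped a region of the other table by at least 1 base.

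Regions around 2 markers, Chrna2 and Cck, which were singled out after their values were seen, were mostly lower in female EE. All 17 regions assigned to Chrna2, the nicotinic receptor subunit of Martinotti cells, were lower, with a median of -0.25. Of these, 6 (35.3%) had an unadjusted p under 0.05 by edgeR, beside 8.01% of all female regions in either direction and 3.48% lower. Of 3821 genes with 10 or more female regions, 1.33% had all of their regions lower. Of the 17 regions, 14 lay inside the neighbouring gene Ptk2b, a tyrosine kinase gene, and 3 inside Chrna2. The region with the smallest p, at chr14:66149510-66151092 inside Chrna2 (build mm10), had 6.41, 5.53 and 6.67 CPM in EE libraries 1 to 3 and 9.46, 9.31 and 8.16 CPM in SH libraries 1 to 3. The groups did not overlap there, and the log2 fold change was -0.53 ± 0.17, with an adjusted p of 0.255 by edgeR. The male region that overlaps it was at -0.27 ± 0.13 (adjusted p 0.99996 by edgeR). In males 11 of 13 Chrna2 regions were lower, with a median of -0.06, and 3.44% of genes with 10 or more regions had at least that share lower. Chrna2 RNA was below the level for testing within either table, at a mean of 0.323 CPM in females.

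At Cck, 42 of 49 female regions were lower in EE, with a median of -0.29. At least that share was lower in 7.90% of the genes with 10 or more regions. An unadjusted p under 0.05 by edgeR was found for 11 of the 49 (22.4%), all lower. Over all female regions the share was 8.01% in either direction and 3.48% lower. Most of these regions, 33 of 49, lay inside Trak1, a gene for a mitochondrial transport adaptor next to Cck, and 32 of these 33 were lower, against 10 of the other 16. At chr9:121400443-121401703 in Trak1, EE libraries had 10.7, 12.1 and 10.4 CPM and SH libraries 11.7, 17.2 and 15.7 CPM, with a log2 fold change of -0.42 ± 0.14 and an adjusted p of 0.317 by edgeR. At chr9:121398225-121399526 the EE libraries, at 10.7, 11.1 and 11.9 CPM, all lay under the SH libraries, at 12.4, 14.8 and 17.2 CPM (-0.39 ± 0.14, adjusted p 0.361 by edgeR). The male region that overlaps both of these was at 0.00 ± 0.11. The female region over the Cck start itself, at chr9:121495400-121496753, had -0.29 ± 0.13 (adjusted p 0.580 by edgeR). In males 26 of 34 Cck regions were lower, with a median of -0.05, of which 20 lay among the 25 in Trak1. The RNA of Trak1 itself was at -0.06 ± 0.05 in females and 0.03 ± 0.04 in males, and RNA of Ptk2b 0.01 ± 0.06 and -0.04 ± 0.05.

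**Figure D5:**
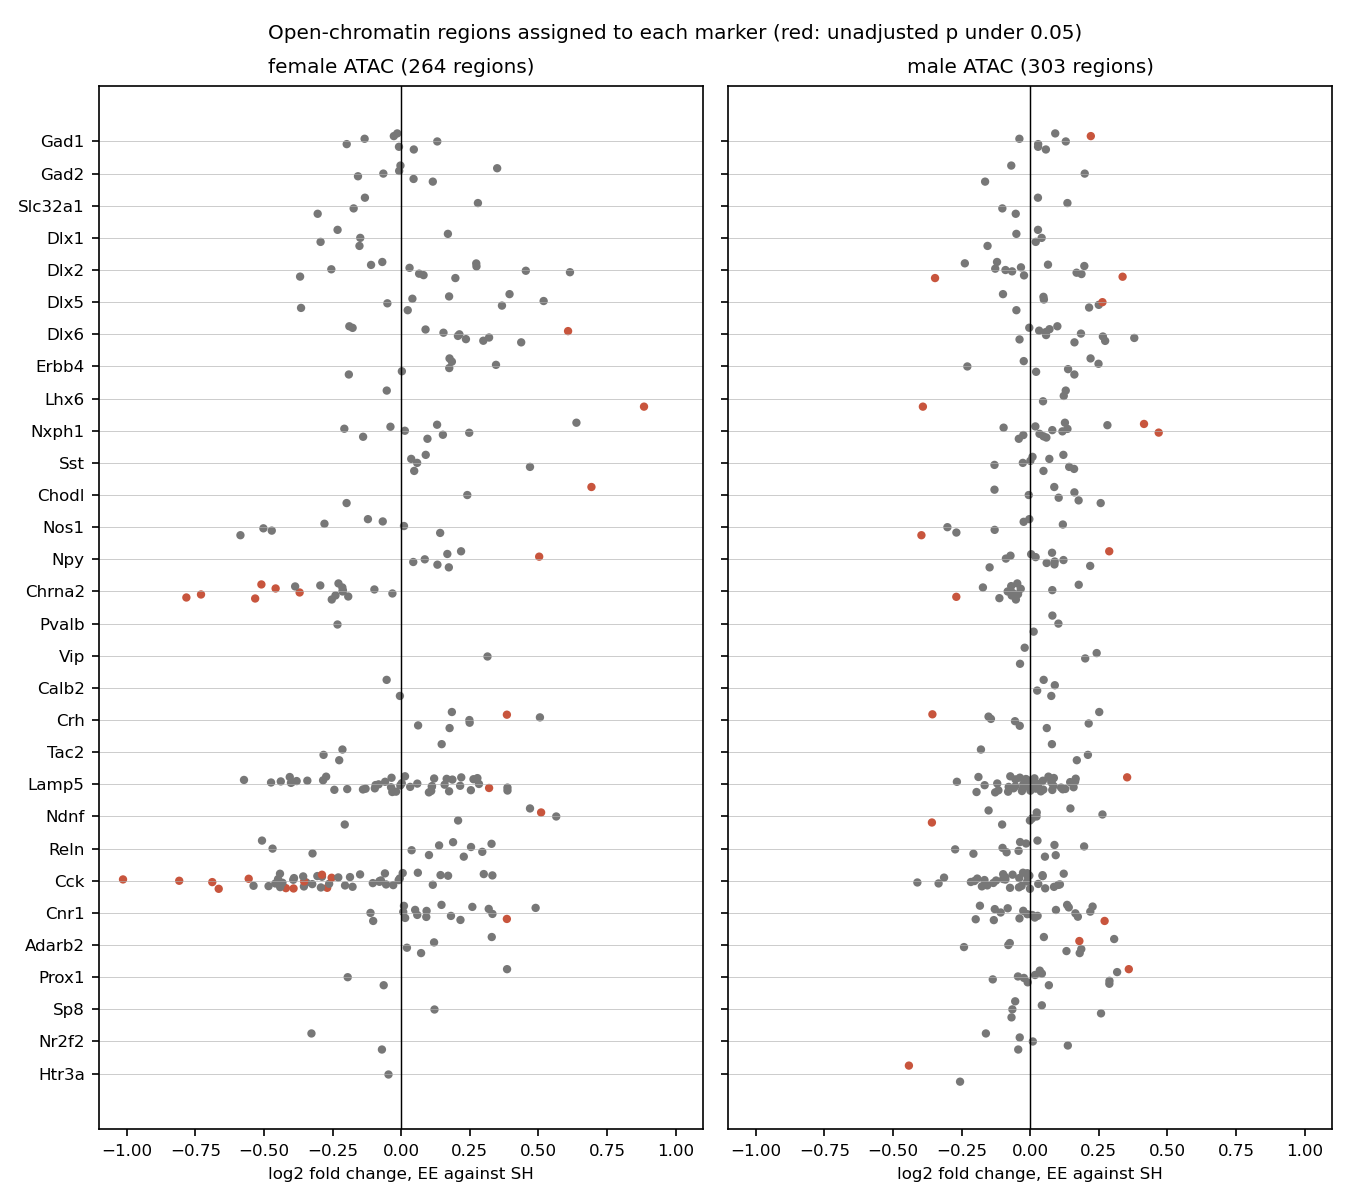
Log2 fold change of EE against SH for each open-chromatin region assigned to a marker, in the female (264 regions) and male (303 regions) ATAC tables, in rows by marker; red points have an unadjusted p under 0.05. Points for Chrna2 and Cck lie mostly left of 0 in females, and the spread is wider in females (3 libraries per group) than in males.

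The female regions with higher EE signal and the smallest p were spread over single genes. A region upstream of Cnr1 at chr4:33879591-33880697, in no gene, had 14.8, 17.5 and 13.9 CPM in EE and 12.8, 11.4 and 11.2 CPM in SH, groups that did not overlap, with 0.39 ± 0.13 and an adjusted p of 0.357 by edgeR, and the male region that overlaps it was at -0.04 ± 0.07. A region downstream of Chodl at chr16:78969448-78969888, in Tmprss15, had 2.53, 2.01 and 1.92 CPM in EE and 1.63, 1.40 and 0.960 CPM in SH, with 0.69 ± 0.30, and its male counterpart was at -0.01 ± 0.11. A region inside Lhx6 at chr2:36102663-36102786 had 1.096, 1.12 and 1.36 CPM in EE and 0.542, 0.698 and 0.700 CPM in SH, with 0.88 ± 0.41, and its male counterpart was at 0.12 ± 0.10. In males the smallest p in the lower direction were at a region upstream of Ndnf, in Tnip3 (chr6:65631244-65632879, -0.36 ± 0.12), at one upstream of Crh (chr3:19720561-19721799, -0.36 ± 0.12) and at one inside Lhx6 (chr2:36083450-36084087, -0.39 ± 0.15). In the higher direction they were upstream of Cnr1 (chr4:33838167-33838896, 0.27 ± 0.11), in Pak7 near Lamp5 (chr2:136139487-136139940, 0.35 ± 0.14) and upstream of Prox1 (chr1:190264973-190265802, 0.36 ± 0.15). The adjusted p by edgeR was 0.99996 for each of these 6. Female regions that overlap 3 of them were at 0.39 (unadjusted p 0.0404 by edgeR) upstream of Crh and -0.10 upstream of Cnr1, both opposite in sign to the male value, and at 0.22 near Lamp5.

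Regions at or nearest the gene starts held small differences. At the Adarb2 start, where the printed promoter with its homeodomain core lies, male libraries ran from 11.2 to 15.3 CPM in EE (median 13.4) and from 10.5 to 12.9 in SH (median 11.7). The EE libraries there were higher by 0.18 ± 0.08 on the log2 scale in males (unadjusted p 0.0304, adjusted p 0.99996 by edgeR) and 0.12 ± 0.14 in females, beside RNA values of 0.12 and -0.03. The printed Sst promoter lay in a male region at chr16:23890568-23891153, which ran from 1.21 to 1.61 CPM in EE (median 1.41) and from 0.915 to 1.79 in SH (median 1.40), with a log2 fold change of 0.00 ± 0.16. No female region overlapped that promoter. The printed Lhx6 promoter overlapped a female region with 1.24 ± 0.264 CPM under enrichment against 1.28 ± 0.522 CPM under standard housing (SD, n = 3), at -0.05 ± 0.35, and no male region. The Gad2 start had -0.16 ± 0.17 in females and 0.20 ± 0.11 in males, the Slc32a1 start -0.17 ± 0.19 and -0.10 ± 0.12, and the region nearest the Lamp5 start 0.21 ± 0.26 and -0.01 ± 0.07. For Gad1 the nearest region, inside the gene 5.195 kb from its outermost annotated start, had 0.05 ± 0.22 in females, and its male counterpart 0.06 ± 0.15. The regions that overlap the RefSeq promoter of Gad1 (chr2:70561879-70562128) were at -0.008 in females and 0.03 ± 0.11 in males. The region nearest the Vip start had 0.31 ± 0.19 in females and -0.02 ± 0.10 in males, and that nearest the Pvalb start -0.23 ± 0.29 and 0.08 ± 0.18. The female region nearest the Sst start, 5.678 kb downstream of it, had 0.06 ± 0.23.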

How the data were processed

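Nuclear RNA and ATAC libraries of the 4 tables were used as deposited. The authors deposited raw read counts per Ensembl gene (introns and exons) and raw counts per region. The submitters' processing notes name MACS2 2.1.1, DiffBind 3.2.2, edgeR and bedtools, as well as STAR 2.5.4, SAMtools 1.3.1 and DESeq2 1.16.1, and build mm10. The sources used here do not give the counter, its strand setting, how regions were merged or whether region starts count from 0 or 1. The male RNA header lacks 1 name, so its columns were read by position. Symbols matched 53274 of 53379 IDs.

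A separate fit was made per table with edgeR 4.0.16 (R 4.3.3): TMM scaling, robust quasi-likelihood F test of housing, two-sided, with Benjamini-Hochberg adjustment over all features and calls at 0.05. Genes needed 0.5 CPM in 6 libraries, and regions passed filterByExpr. Log2 fold changes are EE over SH, and the SE is the size over the square root of F. DESeq2 1.42.0, limma 3.58.1, other filters and scalings, covariates and left-out libraries were alternatives. The fits were checked on simulated counts with planted changes. Of changes of 0.5 on the log2 scale, edgeR called 56.6% in female RNA, 49.0% in male RNA, 19.0% in female ATAC and 42.4% in male ATAC. Of changes of 1 it called 67.0%, 83.0%, 63.0% and 95.0%, so changes of the size of most marker values can be missed. No 2 libraries of a group agreed within sampling noise. Replicate numbers were not taken to pair libraries, and a fit with them as a block was an alternative. Relations used 100000 permutations within housing.

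The members and lists were chosen with earlier results of these data known. Named were the lead genes Gad1, Gad2, Slc32a1, Lhx6, Sst, Pvalb, Vip, Lamp5 and Adarb2, and markers with an unadjusted p under 0.05. Also named were regions at or nearest lead gene starts, the 3 marker regions with the smallest p per direction, and up to 4 genes per list. Lists of olfactory bulb and basal forebrain cholinergic neurons, with 6 and 2 genes tested in females and 6 and 1 in males, had 0 called in either table, as did those of oligodendrocyte precursors, microglia and vascular cells. Promoters were from RefSeq (GRCm38.p6).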

Additional observations from a re-analysis of the deposited data

Results flagged for a closer look

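Of 134 groups of 4 to 10 libraries, 12 held a library whose gap to the rest passed the 95% limit for a single extreme value, which chance gives in about 1 of 20 groups. Female SH 2 was the extreme library for Gad1 (52.9 CPM, the other SH libraries 29.4 to 37.9), Slc32a1 (8.03 CPM, others 3.00 to 3.65) and Nr2f2 (6.56 CPM, others 2.02 to 2.75). It was also the highest library in the non-neuronal lists, and its part in these values was not tested beyond the fits without it. Male EE 1 was the extreme library for Gad1 (17.9 CPM, others 25.0 to 28.5), Erbb4 (269 CPM, others 359 to 411) and Calb2 (0.509 CPM, others 0.952 to 1.13).

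Single genes stood apart in other libraries. Cck had 36.0 CPM in female SH 3, Prox1 10.8 CPM in female EE 3, Lamp5 48.7 CPM and Lhx6 3.78 CPM in male SH 2, and Tac2 1.41 CPM in male EE 3. The male region upstream of Crh had 4.35 CPM in EE 3, below the other EE libraries at 5.87 to 6.69.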

How the results depend on the processing

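No marker or marker region was called in any table under DESeq2, limma, scaling by total count, the replicate block, the covariates or any left-out library. The 1 exception was Nos1 in male RNA without the low-count filter, where 1 marker was called. With the replicate block the median of the markers was 0.10 in female RNA and 0.05 in male RNA, and no marker's call changed. Same-numbered libraries had deviations correlated from 0.02 to 0.29 in female RNA (3 of 6 correlated best with their own number) and from -0.03 to 0.22 in male RNA. In male RNA the numbers in the header differ from the replicate numbers used here. The labels do not state a pairing and these values do not settle it, so the main fits did not use the numbers.

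The count over all features moved by more than 1.5 times. In female RNA it was 0, and 114 by DESeq2, 168 without a filter, 101 with the block, 41 with the non-neuronal covariate, 2 with the striatal one, 1 by total count, 50 without SH 2 with the striatal covariate (chosen after seeing the data) and 0 to 86 over left-out libraries, the last without SH 2. In male RNA it was 6, and 63 by DESeq2, 136 without a filter, 10 and 12 with the non-neuronal and excitatory covariates, and 0 to 11 over left-out libraries. In female ATAC it was 78, and 122 by DESeq2, 34 with the block and 22 to 333 over left-out libraries, and in male ATAC 0, 7 by DESeq2, 1 with the block and 0 to 3. The median over female marker regions was 0.091 within 2 kb of a start, and -0.048 to 0.016 over left-out libraries. Regions within 50 kb, within 2 kb or nearest over every biotype left 90, 25 and 72 female and 106, 17 and 89 male regions higher, from fewer assigned regions. Within 2 kb these were 25 of 38 female and 17 of 27 male regions, with a male median of 0.024. Among all regions within 2 kb of a start, 31.3% of female and 33.6% of male ones were higher, with medians of -0.070 and -0.030. The difference from that background was not tested.

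Signs changed for values near 0, and the cause was not tested. In female RNA, Lhx6 was -0.049 and Nos1 -0.063 with the striatal covariate, and -0.019 and -0.115 with the excitatory one. In male RNA, Lhx6 was -0.014 by total count, -0.072 by limma, -0.093 with the non-neuronal covariate, -0.12 with the excitatory covariate and -0.11 with a block by header number (chosen after seeing the data), and Gad1 was -0.019 with the non-neuronal covariate. Over left-out libraries, female RNA ran from -0.00186 to 0.25 for Lhx6, -0.025 to 0.13 for Nos1, -0.27 to 0.14 for Vip and -0.096 to 0.070 for Adarb2, and male RNA from -0.087 to 0.17 for Lhx6 and -0.011 to 0.13 for Sst. Female regions at or nearest a start ran from -0.23 to 0.33 for Lhx6 (0.0076 by limma), -0.034 to 0.25 for Adarb2, -0.22 to 0.21 for Sst, -0.29 to 0.016 for Gad2, -0.12 to 0.21 for Gad1, -0.47 to 0.0085 for Pvalb and -0.38 to 0.16 for Slc32a1. Male regions at or nearest a start ran from -0.068 to 0.065 for Sst (-0.0019 by DESeq2), -0.040 to 0.022 for Lamp5 and -0.057 to 0.035 for Vip. With scaling by total count alone the relation of Gad2 to Slc32a1 in males passed the threshold, at r = 0.776 (adjusted permutation p 0.0266, 0.053 with TMM scaling).

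Low counts limited Crh, Htr3a, Dlx5, Tac2 and Calb2, whose SE ran up to 0.43 on the log2 scale.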
